A study of Mus musculus with 8 samples.

Results

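The nuclear receptors other than the classical steroid receptors were examined in isolated pituitary gonadotropes of the mouse. The 42 genes were chosen by name, as the mouse nuclear receptor superfamily without the receptors for estrogens, androgens, progesterone, glucocorticoids and mineralocorticoids, and each of the 42 symbols matched a single entry among the 55523 of the count table. The rule uses names and no measured value, although the set was picked with earlier results of these data known. The cells were EGFP-positive cells sorted from the pituitaries of Ad4BP-BAC-EGFP mice, in which a bacterial artificial chromosome of the *Nr5a1* gene (whose product is also called Ad4BP) drives EGFP. Female and male samples carried the same transgene, received no stated treatment, and are labelled as different in sex, with 4 samples each. Age and further strain background are not given in the sources used here. The labels do not say whether a sample was a single animal or a pool, so the p-values measure the spread between these samples, which may be technical. The paper excluded male replicate 1 because its expression pattern differed from that of the other males, and it is shown apart here. The sexes were thus compared with female replicates 1 to 4 and male replicates 2 to 4. That exclusion rests on the expression values themselves, so the spread among the males compared may be understated.

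Nuclear receptors are transcription factors that bind DNA through a zinc finger domain and carry a pocket for small lipophilic ligands such as thyroid hormone, retinoids, vitamin D, oxysterols and fatty acids, although several members are orphans whose activity is set mainly by their own abundance. Many of them bind DNA as heterodimers with a retinoid X receptor and exchange corepressors for coactivators when ligand is bound. In the gonadotrope, NR5A1 (steroidogenic factor 1) activates the gonadotropin subunit and GnRH receptor genes, NR0B1 (DAX1) restrains NR5A1, and *Nr4a1* is an early target of GnRH signalling.

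Promoter sequence was searched for the short motifs that these receptors and the cyclic AMP pathway are known to recognise, because several of these receptors are known to act on each other's genes. The RefSeq windows of the 250 bases before the gene start (GRCm38.p6) matched 39 of the 42 genes. *Nr5a1*, *Thra* and *Hnf4g* had no entry. Each motif was searched on both strands. CAAGGNCA, a form of the NR5A1 site, was in 3 of the 39 windows (*Nr0b2*, *Nr1d1* and *Rara*) and in 5.53% of all 32851 windows. AGGTCA, the shared core of many receptor sites, was in 10 of the 39 and in 14.0% of all windows. AAAGGTCA, a site form of the NR4A receptors that holds AGGTCA within it, was in 2 of the 39 (*Rxra* and *Rxrg*) and in 1.34% of all windows. CACGTG, the E-box read by the clock factors, was in 4 of the 39 (*Nr0b2*, *Nr1i3*, *Rara* and *Thrb*) and in 6.02% of all windows. TGACG, the core of the cyclic AMP response element, was in 12 of the 39 and in 17.8% of all windows, and the complete element TGACGTCA, which holds TGACG within it, was in 1 of the 39 (*Nr2e1*) and in 1.55% of all windows.

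The windows of *Nr4a1*, *Nr4a2* and *Nr4a3* each held 4 copies of TGACG. Windows with at least 4 copies were 0.137% of all windows, and among the 39 they were these 3. They are printed here because these genes belong to a single subfamily whose RNA differed between samples in different ways. The strands are those of the genes, bases inside annotated exons are left out (which shortens the window of *Nr4a3* to 98 bases and removes 1 of its copies), and capitals mark TGACG or its reverse complement CGTCA.
Nr4a1 (chr15:101266596-101266845, plus strand): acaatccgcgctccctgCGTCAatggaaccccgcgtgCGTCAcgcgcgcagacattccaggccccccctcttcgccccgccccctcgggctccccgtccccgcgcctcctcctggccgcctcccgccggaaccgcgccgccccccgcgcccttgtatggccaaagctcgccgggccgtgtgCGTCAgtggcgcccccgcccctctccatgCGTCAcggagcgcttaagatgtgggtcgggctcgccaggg
Nr4a2 (chr2:57124004-57124253, minus strand): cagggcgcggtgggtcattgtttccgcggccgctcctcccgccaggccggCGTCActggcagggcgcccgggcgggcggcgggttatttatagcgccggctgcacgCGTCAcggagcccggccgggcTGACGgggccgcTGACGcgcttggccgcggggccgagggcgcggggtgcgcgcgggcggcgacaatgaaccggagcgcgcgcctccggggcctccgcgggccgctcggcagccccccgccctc
Nr4a3 (chr4:48045055-48045152, plus strand): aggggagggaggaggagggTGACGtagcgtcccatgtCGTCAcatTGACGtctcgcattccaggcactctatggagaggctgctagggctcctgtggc

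The windows of the NR0B genes and of *Nr1d1* are shown because *Nr0b1* and *Nr0b2* encode the partners of NR5A1 and *Nr1d1* differed between the sexes. Positions count back from the RefSeq start, and the printed window of *Nr0b1*, of 239 bases, stops short of it where an annotated exon begins. Capitals mark AGGTCA at bases 126 to 121 before the RefSeq start of *Nr0b1*. In *Nr0b2* they mark CAAGGNCA at bases 201 to 194, which overlaps CACGTG at bases 195 to 190. In *Nr1d1* they mark CAAGGNCA on the opposite strand, at bases 222 to 215 before the start. A match of letters is a description, and binding was not measured.
Nr0b1 (chrX:86191525-86191763, plus strand): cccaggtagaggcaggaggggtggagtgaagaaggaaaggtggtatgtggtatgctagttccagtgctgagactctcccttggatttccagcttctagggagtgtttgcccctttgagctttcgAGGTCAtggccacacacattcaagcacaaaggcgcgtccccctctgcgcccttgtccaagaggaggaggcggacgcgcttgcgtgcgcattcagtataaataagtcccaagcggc
Nr0b2 (chr4:133553126-133553375, plus strand): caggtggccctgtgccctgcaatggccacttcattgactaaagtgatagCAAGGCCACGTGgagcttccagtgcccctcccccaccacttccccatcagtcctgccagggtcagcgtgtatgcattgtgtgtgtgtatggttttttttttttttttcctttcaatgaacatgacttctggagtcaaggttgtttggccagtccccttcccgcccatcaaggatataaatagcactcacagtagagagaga
Nr1d1 (chr11:98775378-98775627, minus strand): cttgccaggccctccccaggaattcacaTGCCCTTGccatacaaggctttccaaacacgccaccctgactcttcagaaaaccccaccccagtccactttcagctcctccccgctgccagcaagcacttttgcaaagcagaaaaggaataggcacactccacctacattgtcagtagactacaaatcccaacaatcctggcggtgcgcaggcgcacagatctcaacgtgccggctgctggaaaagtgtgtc

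The libraries held between 18774578 and 31302588 counts. Levels are given as CPM (counts scaled to a common library size, with TMM factors from edgeR). The floor of detection was taken as 3 counts, which is between 0.0958 and 0.16 CPM by library size alone, without these factors. This floor covers counting error only. The gonadotrope markers *Lhb*, *Fshb*, *Cga*, *Gnrhr* and *Nr5a1* were detected in all 8 samples, but they did not move together. *Fshb*, the FSH subunit, was at 1430, 3090, 1400 and 5700 CPM in females, 30500, 30900 and 16900 CPM in the 3 males compared, with male replicate 1 at 5760 CPM, and it was the only one of the 5 to pass (log2 fold change 3.13, SE 0.558, adjusted p = 0.0449, edgeR). *Lhb*, the LH subunit, was at 4140 to 6520 CPM in females, 6290 to 9610 CPM in the 3 males and 9340 CPM in male replicate 1, with overlap, and *Nr5a1* was lower in these males without passing the test. Markers of other pituitary cells were also present. The summed level of the somatotrope markers *Gh* and *Ghrhr* was 12400 to 57900 CPM in females, 65300 to 142000 CPM in the 3 males and 30200 CPM in male replicate 1. Fewer cells of a type and less RNA per cell cannot be told apart in such bulk samples.

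The sorted samples held RNA of most of the superfamily, which cannot be assigned to gonadotropes alone. A level of 1 CPM or more in all 7 samples was reached by 33 of the 42 genes (78.6%), whereas 25.5% of all entries reached it. The mean over the 7 samples was at least 10 CPM for 22 genes and at least 100 CPM for 7. *Hnf4a* and *Hnf4g*, receptors of liver and gut epithelium, had 0 counts in all 8 samples, which allows a level of up to the floor given above by library size alone. *Nr1h5*, *Nr1i2*, *Nr2e1* and *Esrrb* had 0 counts in most samples and did not pass the filter on low counts. *Nr1h4*, *Nr2e3* and *Pparg* were tested but stayed under 1 CPM in at least 1 of the 7 samples. Thus 36 of the 42 genes entered the test.

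Levels of different genes were compared per kilobase of annotated exon. *Nr5a1* had the highest mean over the 7 samples, 216 CPM per kb (range 138 to 299). Its rank is not independent of the sorting, which used EGFP driven by an *Nr5a1* transgene. *Nr5a1* was followed by *Nr4a1* at 156 (range 123 to 186) and *Nr0b1* at 94.8 (range 51.4 to 154). *Nr4a2* at 35.7 (range 19.2 to 59.4) and *Nr1d1* at 33.5 CPM per kb (range 15.7 to 63.2) came next. Each of these 5 genes overlapped in range with its neighbour in this order, which differed by sex. In females *Nr4a2* was at 45.9 and *Nr1d1* at 20.2 CPM per kb on average, whereas in male replicates 2 to 4 they were at 22.0 and 51.2. *Nr5a1* and *Nr4a1* were level in these males, at 169 and 168 CPM per kb. *Thra*, *Nr1d2*, *Nr0b2* and *Nr1h2* lay between 15.1 and 18.3 CPM per kb, with ranges that also overlapped.

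**Figure D1:**
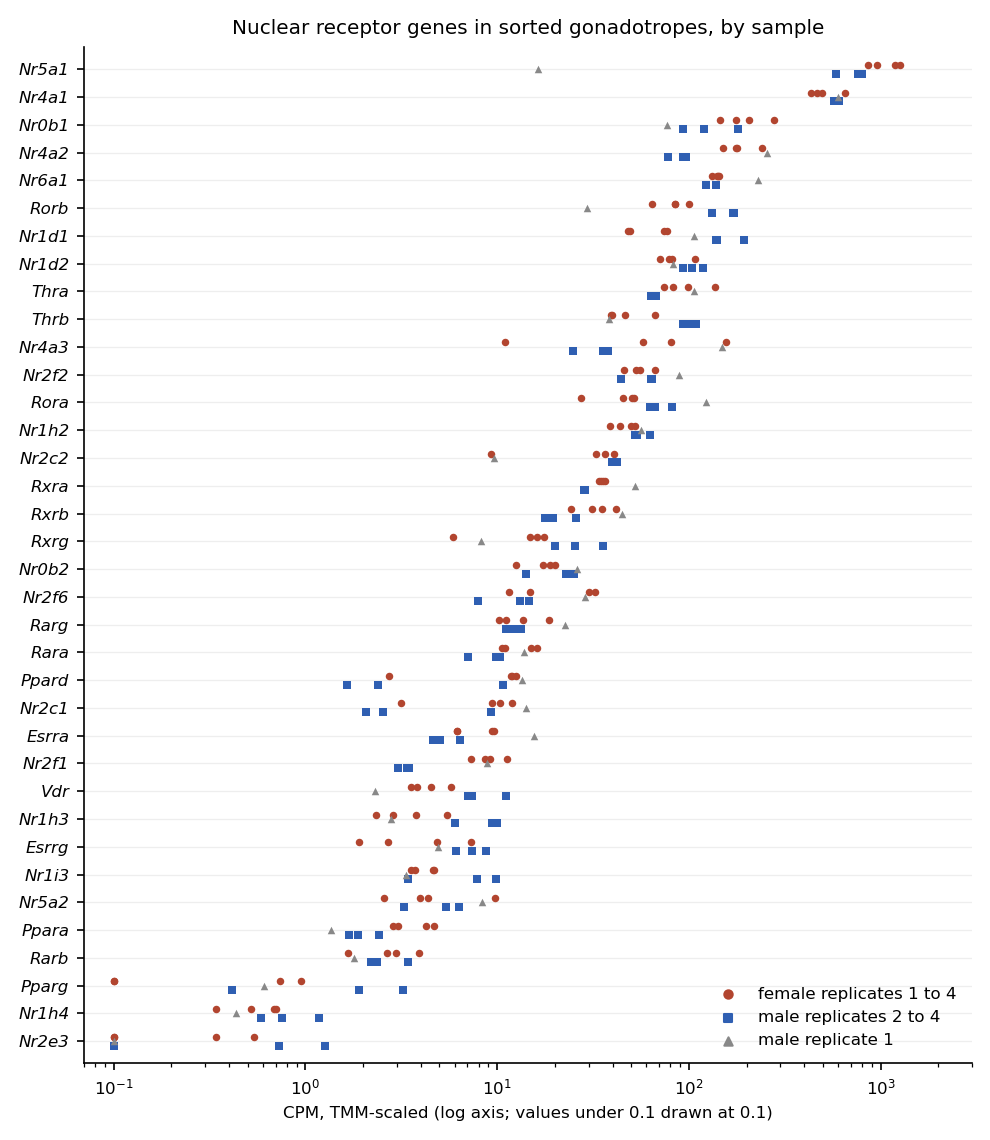
CPM (log axis) of the 36 tested nuclear receptor genes in each sample, ordered by the mean over 7 samples, with female replicates 1 to 4 as circles, male replicates 2 to 4 as squares and male replicate 1 as a triangle. *Nr5a1* and *Nr4a1* are at the top, and the triangle of *Nr5a1*, at 16.3 CPM, lies far to the left of its other samples.

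To see whether the receptor genes differed between the sexes, male replicates 2 to 4 were compared with the females with edgeR's quasi-likelihood test and Benjamini-Hochberg adjustment over all 20152 genes tested. *Nr1d1* (REV-ERB alpha) rose in males, and *Nr2f1* (COUP-TF1) and *Nr4a2* (NURR1) were lower in males than in females. These 3 of 36 genes (8.33%) passed an adjusted p of 0.05, which 2.34% of all genes tested did, 0.983% as higher and 1.35% as lower in males. At an unadjusted p under 0.05 there were 15 of 36 receptor genes (41.7%), 7 higher and 8 lower in males, where 19.9% of all genes were. The sexes did not overlap in 14 of 36 receptor genes (38.9%), where 22.3% of all genes tested did not.

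The median log2 fold change (male over female) was -0.03 over the 36 receptor genes and -0.03 over all genes, with 18 positive and 18 negative values, and the median of the absolute values was 0.67 over the receptor genes and 0.41 over all genes. The centre follows the scaling: with library size alone the medians were -0.23 and -0.24, with 16 positive and 20 negative values. The males were higher, without overlap, in *Nr1d1*, *Rora*, *Rorb*, *Thrb*, *Rxrg*, *Nr1h3* and *Vdr*, that is in 7 of 36 genes where 11.5% of all genes were. They were lower in *Nr2f1*, *Nr4a2*, *Nr5a1*, *Ppara*, *Rara*, *Rxra* and *Thra*, again 7 of 36, where 10.8% of all genes were. With DESeq2 8 of the receptor genes passed (*Nr1d1*, *Nr1h3*, *Nr2f1*, *Nr4a2*, *Rorb*, *Rxra*, *Thrb* and *Vdr*), where 9.71% of all genes passed. Each of the 3 calls of edgeR was lost when some or any single sample was left out, and the values are given with each gene.

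**Figure D2:**
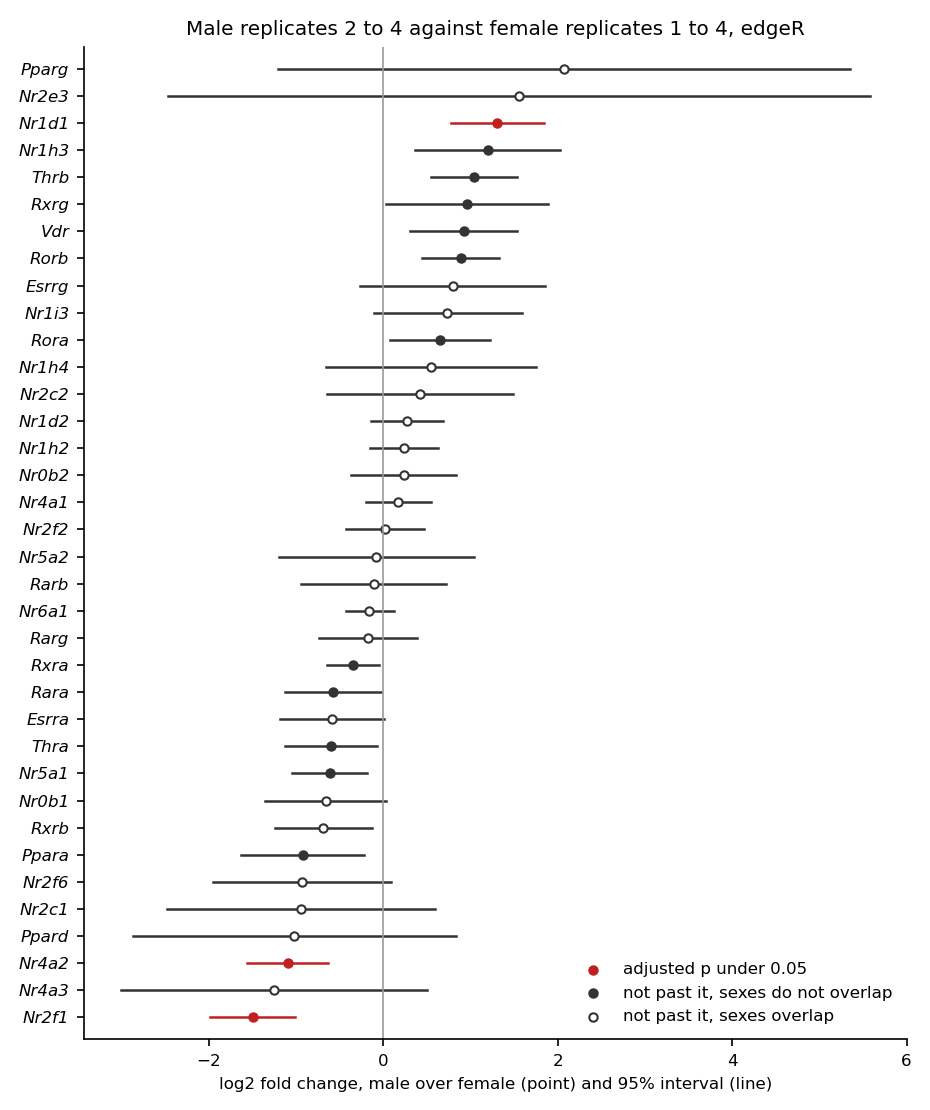
The log2 fold change of the 36 tested nuclear receptor genes, male replicates 2 to 4 over female replicates 1 to 4 (point, with its 95% interval as a line, from edgeR). *Nr1d1* is in red on the right and *Nr2f1* and *Nr4a2* in red on the left, filled dark points mark 11 further genes whose sexes do not overlap, and the widest lines belong to *Nr2e3* and *Pparg*.

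The orphan receptors of the NR5A and NR0B subfamilies include the gene whose transgene marked the cells. *Nr5a1* (chr2:38692656-38714542 in GRCm38) was at 862, 958, 1266 and 1185 CPM in female replicates 1 to 4 and at 764, 801 and 584 CPM in male replicates 2 to 4. All 3 males were below all 4 females. The difference did not pass the test, with a log2 fold change of -0.61 (SE 0.182, 95% interval -1.04 to -0.18) and an adjusted p of 0.130 in edgeR. *Nr5a2*, which encodes the closest relative of NR5A1, averaged 5.16 CPM ± 3.16 (SD, n = 4) in the females, beside 5.0 CPM ± 1.57 (SD, n = 3) in male replicates 2 to 4. Per kilobase, *Nr5a2* was at 0.863 CPM against the 216 CPM of *Nr5a1*.

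*Nr0b1* (DAX1, which lacks the usual DNA binding domain) was at 145, 207, 279 and 177 CPM in the females and at 179.9, 119.6 and 93.0 CPM in male replicates 2 to 4. The sexes overlapped, and the log2 fold change was -0.66 (SE 0.294, adjusted p = 0.272, edgeR). *Nr0b2* (SHP, the other receptor without that domain) was at 12.6, 18.9, 17.3 and 19.9 CPM in females and at 25.3, 22.8 and 14.1 CPM in males, which also overlapped. Its log2 fold change was 0.24, with a 95% interval of -0.37 to 0.84. Within a library, the ratio of *Nr0b1* to *Nr5a1* CPM was between 0.149 and 0.220 in females and between 0.149 and 0.235 in the 3 males, and these ranges overlapped.

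The NR4A genes encode ligand-independent receptors that are switched on within minutes of a stimulus. *Nr4a1* (NUR77) was at 654, 467, 496 and 433 CPM in females and at 595, 605 and 572 CPM in male replicates 2 to 4. The 3 males lay within the range of the females, with a log2 fold change of 0.17 (95% interval -0.20 to 0.55). *Nr4a2* (chr2:57106830-57124003) was at 151, 178, 176 and 241 CPM in females and at 78.0, 96.6 and 93.8 CPM in males. Every female was higher than every one of these males, and the log2 fold change was -1.09 (SE 0.198, adjusted p = 0.0460, edgeR), or 2.13-fold higher in females. When 1 sample was left out, whichever it was, the adjusted p of *Nr4a2* rose to between 0.0573 and 0.149, with a log2 fold change between -1.16 and -0.92. With male replicate 1 included, the log2 fold change of *Nr4a2* was -0.51 (adjusted p = 0.748, edgeR).

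*Nr4a3* (NOR1) was the most variable of the subfamily among the females, at 157, 57.9, 80.7 and 11.0 CPM, beside 25.0, 37.7 and 35.7 CPM in the 3 males. The sexes overlapped, and the log2 fold change of -1.25 had an SE of 0.744 (adjusted p = 0.416, edgeR). The ratio of *Nr4a2* to *Nr4a1* CPM, computed in each library after the values had been seen, was 0.230, 0.382, 0.355 and 0.558 in females and 0.131, 0.16 and 0.164 in males. The sexes did not overlap in this ratio either. Genes of the early response to cell dissociation (*Fos*, *Jun*, *Egr1* and others) were summed beside them, at 19600 to 25100 CPM in females and 22900 to 25100 CPM in males. None of the 11 entries of that list passed in edgeR or DESeq2, and 1, *Egr1*, had an unadjusted p under 0.05 in edgeR. *Egr1* was at 2870, 2070, 2330 and 2540 CPM in females, 1520, 1810 and 1940 CPM in the 3 males, with male replicate 1 at 3470 CPM, so that the males compared were lower without overlap, as for *Nr4a2*. The part of this response in the NR4A values was not tested.

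**Figure D3:**
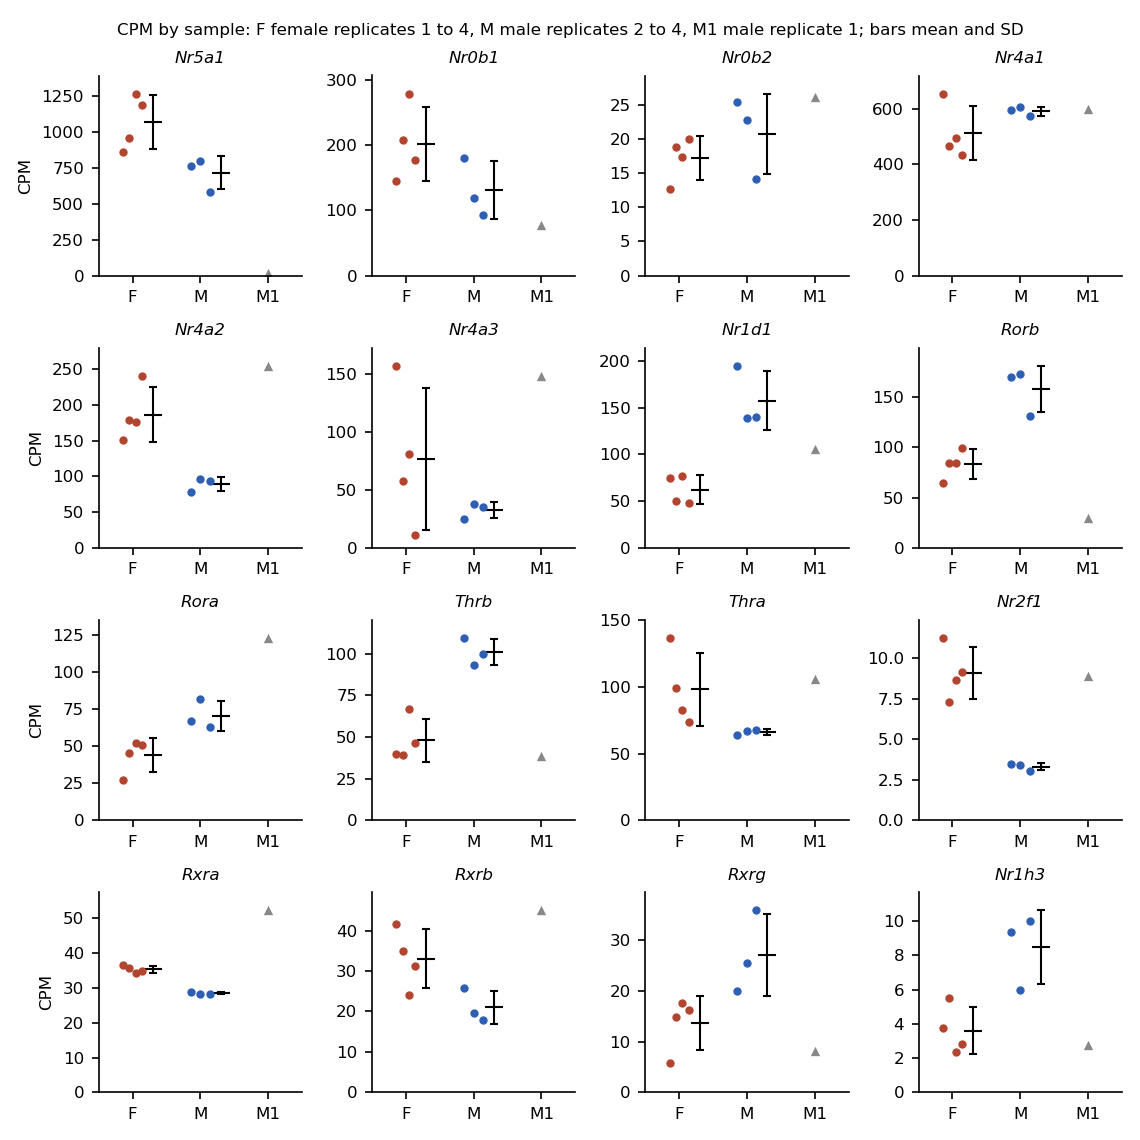
CPM (linear axes from 0) of 16 nuclear receptor genes in each sample, with females (F) and male replicates 2 to 4 (M) as points beside the mean and SD, and male replicate 1 (M1) as a triangle. *Nr1d1*, *Nr4a2* and *Nr2f1*, which passed the test, show no overlap between F and M. The triangles of *Nr5a1*, *Nr0b1*, *Rorb* and *Thrb* lie below every other sample, and those of *Nr0b2*, *Nr4a2*, *Rora*, *Rxra* and *Rxrb* above every other sample.

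REV-ERB and ROR receptors share response elements, at which the former repress and the latter activate, and they form an arm of the circadian clock. *Nr1d1* (chr11:98767932-98775333) was at 74.4, 49.6, 76.6 and 48.4 CPM in females and at 194, 138.5 and 139.5 CPM in male replicates 2 to 4. Each of the 3 males was above each female. The log2 fold change was 1.31 (SE 0.227, adjusted p = 0.0417, edgeR), or 2.48-fold higher in males. Whichever sample was left out, the adjusted p rose to between 0.0622 and 0.127 and the log2 fold change stayed between 1.14 and 1.44. With library size alone the adjusted p of *Nr1d1* was 0.0531. Exons of *Nr1d1* overlap those of *Thra* on the other strand over 263 bases (8.55% of the exons of *Nr1d1*), and the library kit does not mark strand, so that reads there cannot be assigned to either gene.

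*Nr1d2* (REV-ERB beta) was at 70.9, 81.8, 108 and 78.8 CPM in females and at 119, 103 and 93.1 CPM in males. The sexes overlapped, and the log2 fold change was 0.28 (95% interval -0.14 to 0.69). The ratio of *Nr1d1* to *Nr1d2* CPM was between 0.606 and 1.05 in females and between 1.34 and 1.64 in the 3 males, without overlap. *Rorb* (ROR beta) was at 64.2, 84.8, 84.6 and 99.8 CPM in females and at 169.9, 173 and 132 CPM in males, and *Rora* (ROR alpha) was at 27.3, 45.3, 52.0 and 50.6 CPM in females and at 66.9, 81.9 and 62.7 CPM in males. In both genes all 3 males were above all females, although neither passed the test. *Rorb* had a log2 fold change of 0.89 (SE 0.186, adjusted p = 0.0600, edgeR) and *Rora* of 0.65 (SE 0.246, adjusted p = 0.204, edgeR).

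None of 15 clock partners (the *Per*, *Cry*, *Clock*, *Arntl*, PAR bZIP and *Bhlhe* genes) passed in edgeR, 3 had an unadjusted p under 0.05 in edgeR, where 19.9% of all genes did, and 3 passed with DESeq2, where 9.71% did. The sexes did not overlap in 5 of the 15, where 22.3% of all genes did not. Their median log2 fold change was -0.07. Their summed level was 783 to 964 CPM in females and 854 to 981 CPM in males.

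Thyroid hormone receptors act on a wide range of metabolic genes, and the beta receptor is known in the pituitary for the feedback of thyroid hormone on thyrotropin. *Thrb* was at 39.7, 39.1, 66.4 and 46.5 CPM in females and at 109, 93.4 and 100 CPM in male replicates 2 to 4. *Thra* went the other way, at 137, 99.1, 83.0 and 73.9 CPM in females and at 63.8, 66.9 and 67.6 CPM in males. Neither gene overlapped between the sexes. Neither passed the test, with a log2 fold change of 1.04 (SE 0.209, adjusted p = 0.0535, edgeR) for *Thrb* and -0.60 (SE 0.226, adjusted p = 0.204, edgeR) for *Thra*. *Thrb* alone had an adjusted p of 0.0355 when female replicate 3 was left out, and between 0.0986 and 0.171 when any other sample was.

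The ratio of *Thrb* to *Thra* CPM, chosen after the values had been seen, was 0.291, 0.394, 0.801 and 0.629 in females and 1.71, 1.40 and 1.48 in males. It thus averaged 0.529 ± 0.230 (SD, n = 4) in females and 1.53 ± 0.163 (SD, n = 3) in males. *Thrb* is also a gene of thyrotropes, and *Tshb*, the thyrotropin subunit, was at 20.9, 69.0, 83.5 and 36.3 CPM in females and at 339, 235 and 244 CPM in the same males. The sum of *Tshb* and *Trhr* was 21.4 to 85.2 CPM in females and 238 to 345 CPM in males. Neither passed in edgeR. Both had an unadjusted p under 0.05 in edgeR, where 19.9% of all genes did, and 1 passed with DESeq2, where 9.71% did. The part of these markers in the *Thrb* values was not tested.

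Of the 11 genes of thyroid hormone handling and response (deiodinases, transporters and target genes), 8 were tested and none passed in edgeR. 4 of the 8 had an unadjusted p under 0.05 in edgeR, where 19.9% of all genes did, and 2 passed with DESeq2, where 9.71% did. The sexes did not overlap in 6 of the 8, where 22.3% of all genes did not. The 6 went in either direction, and those of the lowest adjusted p on each side are named here after their values were seen. *Dio2*, the deiodinase that makes active thyroid hormone within cells, was at 63.2, 85.7, 139 and 103 CPM in females and at 39.0, 40.0 and 49.5 CPM in male replicates 2 to 4 (log2 fold change -1.22, SE 0.277, adjusted p = 0.0721, edgeR). *Slc7a8*, an amino acid transporter that also carries thyroid hormone, was at 12.3, 16, 17.1 and 20.9 CPM in females and at 34.5, 27.9 and 33.7 CPM in the same males (log2 fold change 0.92, SE 0.210, adjusted p = 0.0723, edgeR). The median log2 fold change of the 8 was -0.22.

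The retinoid X receptors are the common partners of the thyroid hormone, retinoic acid, vitamin D, oxysterol and fatty acid receptors. *Rxra* was the steadiest of the 3, at 36.6, 35.7, 34.2 and 35.0 CPM in females and at 28.9, 28.4 and 28.3 CPM in male replicates 2 to 4. All females were above all males by a small step, with a log2 fold change of -0.34 (SE 0.126, adjusted p = 0.195, edgeR). *Rxrb* was at 41.6, 35.1, 24.2 and 31.3 CPM in females and at 25.7, 19.5 and 17.9 CPM in males, which overlapped, with a log2 fold change of -0.69 (adjusted p = 0.170, edgeR). *Rxrg* was at 5.86, 14.8, 17.7 and 16.2 CPM in females and at 19.9, 25.4 and 35.7 CPM in males. Here the males were the higher sex without overlap, and the log2 fold change was 0.96 (SE 0.396, adjusted p = 0.240, edgeR). The ratio of *Rxrg* to *Rxra* CPM was between 0.16 and 0.517 in females and between 0.690 and 1.26 in the 3 males. RXR gamma is also known from thyrotropes, whose markers are given beside *Thrb*, and their part in the *Rxrg* values was not tested.

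The retinoic acid receptors were lower than the RXR genes by the mean over the 7 samples on the scale per kilobase. The means were 2.63 CPM per kb for *Rara*, 0.521 for *Rarb* and 3.03 for *Rarg*, against 5.93 for *Rxra*, 7.02 for *Rxrb* and 8.43 for *Rxrg*. The ranges of *Rara* (1.62 to 3.7) and *Rarg* (2.39 to 4.39) overlapped that of *Rxrg* (2.55 to 15.6). *Rara* was at 16.2, 15.1, 10.7 and 11.0 CPM in females and at 10.3, 9.93 and 7.08 CPM in males. The males were lower without overlap, by a narrow margin, and the log2 fold change was -0.57 (SE 0.236, adjusted p = 0.241, edgeR). *Rarg* was at 18.7, 10.2, 13.7 and 11.1 CPM in females and at 11.2, 12.1 and 13.3 CPM in males, with overlap and a log2 fold change of -0.17 (95% interval -0.73 to 0.39). *Rarb* was between 1.66 and 3.93 CPM in the 7 samples, and 34.1% of its exons overlap *Top2b* on the other strand.

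Among the genes that make, bind and degrade retinoids, *Rdh10* was the only one to pass in edgeR, and it rose in males. This gene, which encodes the dehydrogenase that turns retinol into retinal in the first step of retinoic acid synthesis, was at 21.4, 22.0, 19 and 15.2 CPM in females and at 87.4, 66.7 and 57.6 CPM in male replicates 2 to 4. The lowest of these males was above all females by a wide margin, and the log2 fold change was 1.83 (SE 0.207, adjusted p = 0.0161, edgeR). The adjusted p of *Rdh10* in edgeR was between 0.0288 and 0.0493 whichever sample was left out, but 0.132 with all 8 samples. Male replicate 1, at 25.1 CPM, was near the females. Of 16 genes in this list 13 were tested and 12 did not pass in edgeR. An unadjusted p under 0.05 in edgeR was found for 4, where 19.9% of all genes had it, and 2 passed with DESeq2, where 9.71% did. *Crabp1* and *Cyp26c1* had 0 counts in all 8 samples.

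The receptors for oxysterols, fatty acids, vitamin D, bile acids and xenobiotics were mostly low. *Nr1h2* (LXR beta) was the exception, at 39.0, 50.2, 43.7 and 52.7 CPM in females and at 53.5, 62.6 and 52.3 CPM in males. The sexes overlapped, with a log2 fold change of 0.24 (95% interval -0.15 to 0.63). *Nr1h3* (LXR alpha) was at 3.76, 5.51, 2.33 and 2.85 CPM in females and at 9.38, 6.0 and 10.04 CPM in males. The males were higher without overlap, and the log2 fold change was 1.2 (SE 0.354, adjusted p = 0.125, edgeR; adjusted p = 0.0352, DESeq2). *Vdr* (the vitamin D receptor) was at 3.81, 3.56, 5.77 and 4.50 CPM in females and at 7.05, 7.4 and 11.1 CPM in males, again without overlap, with a log2 fold change of 0.92 (SE 0.262, adjusted p = 0.115, edgeR; adjusted p = 0.0358, DESeq2).

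*Ppara*, the fatty acid receptor of oxidative tissues, was at 4.28, 3.02, 2.85 and 4.67 CPM in females and at 1.69, 1.89 and 2.41 CPM in males. Here the females were higher without overlap, and the log2 fold change was -0.92 (SE 0.299, adjusted p = 0.153, edgeR). *Ppard* ranged from 1.66 to 12.6 CPM in the 7 samples with overlap between the sexes. *Pparg*, the adipocyte receptor, was at or under 3.23 CPM in every sample and had 0 counts in female replicates 1 and 2. *Nr1h4* (FXR) was at or under 1.18 CPM. *Nr1i3* (CAR) was between 3.44 and 9.90 CPM in the 7 samples, but 74.9% of its exons overlap *Tomm40l* on the other strand, so that its reads cannot be told apart from those of that gene. *Nr1i2* (PXR) had 19 counts in male replicate 4 and 0 in the other samples, and *Nr1h5* had 11 counts in male replicate 1 and 0 in the others.

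None of 11 oxysterol response genes passed in edgeR. Of these, 4 had an unadjusted p under 0.05 in edgeR, where 19.9% of all genes did, and 2 passed with DESeq2, where 9.71% did. Of 14 fatty acid and energy response genes 13 were tested, and where 2.34% of all genes passed in edgeR, 1 of the 13 did. This was *Cd36*, a fatty acid uptake receptor, at 0.770, 0.585, 1.23 and 1.69 CPM in females and 4.33, 5.70 and 4.09 CPM in male replicates 2 to 4. It rose in males with a log2 fold change of 2.10 (SE 0.400, adjusted p = 0.0494, edgeR). The call was lost whichever sample was left out, with an adjusted p between 0.0587 and 0.158, and it was 0.0755 with no filter beyond 1 count. *Cd36* was at 0.917 CPM in male replicate 1, within the females, and had an adjusted p of 0.309 in edgeR with all 8 samples. None of the 4 genes of vitamin D handling had enough counts to be tested.

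The NR2 receptors include the COUP transcription factors, which mark mesenchymal, endothelial and neural progenitor cells in many organs. *Nr2f1* (chr13:78188973-78199757) was at 11.3, 7.32, 8.65 and 9.17 CPM in females and at 3.47, 3.40 and 3.04 CPM in male replicates 2 to 4. The lowest female was above the highest of these males. It had the smallest adjusted p of the receptor genes in edgeR (0.0273), with a log2 fold change of -1.49 (SE 0.206), or 2.81-fold higher in females. The adjusted p was 0.0475 without female replicate 1 and 0.0465 without female replicate 2, and it was between 0.0596 and 0.0974 without any 1 of the other samples. Including male replicate 1 brought the log2 fold change of *Nr2f1* to -0.95 (adjusted p = 0.437, edgeR).

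The stem cell markers *Sox2*, *Sox9* and *S100b* moved in the same direction as *Nr2f1*. Their sum was 244 to 383 CPM in females, 138 to 173 CPM in the 3 males compared, and 305 CPM in male replicate 1. *Sox9* passed the test as lower in males (log2 fold change -1.02, SE 0.177, adjusted p = 0.0417, edgeR), whereas the other 2 did not. The summed level of 7 stromal markers was 124 to 174 CPM in females, 108 to 117 CPM in the 3 males and 114 CPM in male replicate 1. None of the stromal markers passed in edgeR. An unadjusted p under 0.05 in edgeR was found for 3, where 19.9% of all genes had it, and 2 passed with DESeq2, where 9.71% did. The part of these cells in the *Nr2f1* values was not tested.

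*Nr2f2* (COUP-TF2) did not share the pattern of *Nr2f1*, at 53.3, 45.9, 66.8 and 55.9 CPM in females and 64.6, 63.4 and 44.6 CPM in males. The sexes overlapped, with a log2 fold change of 0.02 (95% interval -0.43 to 0.47). The summed level of 7 endothelial markers was 480 to 621 CPM in females and 504 to 671 CPM in males. *Nr2f6* was at 30.2, 11.5, 14.8 and 32.4 CPM in females and 8.0, 13.1 and 14.6 CPM in males, with overlap and a log2 fold change of -0.93 (SE 0.433, adjusted p = 0.291, edgeR). 54.4% of the exons of *Nr2f6* overlap *Ocel1* on the other strand.

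The testicular receptors TR2 and TR4 are encoded by *Nr2c1* and *Nr2c2*. *Nr2c2* was at 9.32, 40.9, 33.0 and 36.8 CPM in females and at 41.9, 39.9 and 42 CPM in males, so that female replicate 1 alone was low among these 7. The log2 fold change was 0.43 (SE 0.452, adjusted p = 0.680, edgeR), and 30.7% of its exons overlap *Mrps25* on the other strand. *Nr2c1* ranged from 2.08 to 12 CPM with overlap. *Nr2e1* and *Nr2e3*, receptors of neural progenitors and photoreceptors, were at or under 1.26 CPM in every sample.

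*Nr6a1* (germ cell nuclear factor), the neighbour of *Nr5a1* on chromosome 2, varied little among the females, at 141, 144, 132 and 143 CPM, beside 138, 123 and 123 CPM in males. The log2 fold change was -0.16 (95% interval -0.43 to 0.12). Among the estrogen-related receptors, orphans that drive mitochondrial genes, *Esrra* averaged 7.84 CPM ± 1.92 (SD, n = 4) in the females, beside 5.35 CPM ± 0.914 (SD, n = 3) in the 3 males. *Esrrg* averaged 4.19 CPM ± 2.44 (SD, n = 4) and 7.42 CPM ± 1.32 (SD, n = 3). Neither passed the test, with an adjusted p of 0.259 for *Esrra* and 0.391 for *Esrrg* in edgeR, and both overlapped between the sexes. *Esrrb* had counts in female replicates 1 and 3 only.

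The coregulators that the receptors recruit gave no call in edgeR. None of 17 coactivators passed, 5 had an unadjusted p under 0.05 in edgeR and 3 passed with DESeq2, with a median log2 fold change of -0.20. None of 11 corepressors passed, 1 had an unadjusted p under 0.05 in edgeR and 1 passed with DESeq2, with a median of -0.12. Over all 8 lists of partners, handling and response genes, 2 of the 88 genes tested (2.27%) passed in edgeR, near the 2.34% of all genes, and the median log2 fold change was -0.07. Of the same 88 genes 25 had an unadjusted p under 0.05 in edgeR, where 19.9% of all genes did. With DESeq2 16 genes of the lists passed, where 9.71% of all genes did.

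**Figure D4:**
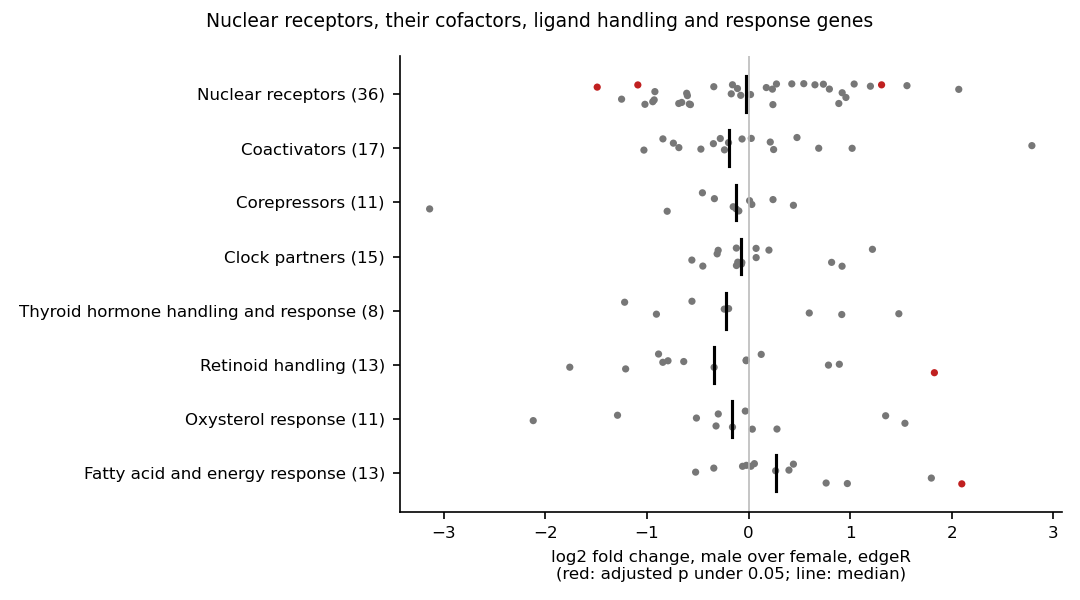
The log2 fold change (male over female, edgeR) of each tested nuclear receptor gene and of each tested gene in 7 lists of coregulators, partners, ligand handling and response genes, with the number tested in brackets, the median as a line and adjusted p under 0.05 in red. 3 receptor genes, *Rdh10* and *Cd36* are in red, and the medians of the lists lie between -0.34 and 0.27.

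Male replicate 1 differed from the other males over much of the superfamily. It lay above male replicates 2 to 4 in 17 of the 36 tested receptor genes (47.2%) and below them in 15 (41.7%), where 35.3% and 34.6% of all genes tested did. It was above all 7 other samples in 11 (30.6%, where 20.7% of all genes were) and below all 7 in 7 (19.4%, where 19.1% of all genes were). These are counts, and no p-value is given for a single sample.

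The tested genes below all other samples were *Nr5a1*, *Nr0b1*, *Rorb*, *Thrb*, *Vdr*, *Ppara* and *Nr1i3*. *Nr5a1*, at 373 counts or 16.3 CPM, was 44.0-fold under the mean of the other males. *Nr5a1os*, the entry named as its opposite strand transcript, was not low there, at 98.8 CPM beside 83.3, 82.5 and 51.6 CPM in the other males. How this sample was gated is not given in the sources used here. *Nr0b1* was at 77.2 CPM, 1.69-fold under their mean, so that its ratio to *Nr5a1* was 4.74. *Rorb* was at 29.6 CPM, 5.35-fold under the other males and also under every female, whereas *Rora*, at 123 CPM, was above every other sample. The ratio of *Rorb* to *Rora* CPM was 0.241 in male replicate 1 and between 1.63 and 2.54 in the other 7 samples.

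The tested genes above all other samples were *Nr4a2*, *Nr6a1*, *Rora*, *Rxra*, *Rxrb*, *Rarg*, *Nr2f2*, *Nr0b2*, *Nr2c1*, *Esrra* and *Ppard*. *Nr4a2* was at 255 CPM, 2.84-fold over the mean of the other males, and *Nr4a3* at 148 CPM was 4.52-fold over it. *Nr4a1*, at 600.3 CPM, lay among the other males. The sum of the endothelial markers, at 731 CPM, was also above the 480 to 671 CPM of the other 7 samples, but its members were divided. *Cdh5*, *Plvap*, *Kdr* and *Tek* were above all 7, *Pecam1* lay within them, and *Emcn* (17.4 CPM) and *Esam* (3.62 CPM) were below all 7. The lactotrope marker *Prl*, at 1620 CPM, was below the 4670 to 18100 CPM of the other 7 samples. The part of these cells in the values of male replicate 1, *Nr2f2* included, was not tested. *Nr6a1* was at 228 CPM, *Rxra* at 52.2 CPM and *Rxrb* at 45.0 CPM. *Thrb*, at 38.4 CPM, and *Nr2f1*, at 8.91 CPM, were near the females, as was the ratio of *Thrb* to *Thra* CPM at 0.363. *Nr1d1*, at 106 CPM, lay between the sexes. With male replicate 1 included among the males, none of the receptor genes tested passed an adjusted p of 0.05 in edgeR. An unadjusted p under 0.05 was then found for 6 of them, beside 1997 of all genes tested.

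**Figure D5:**
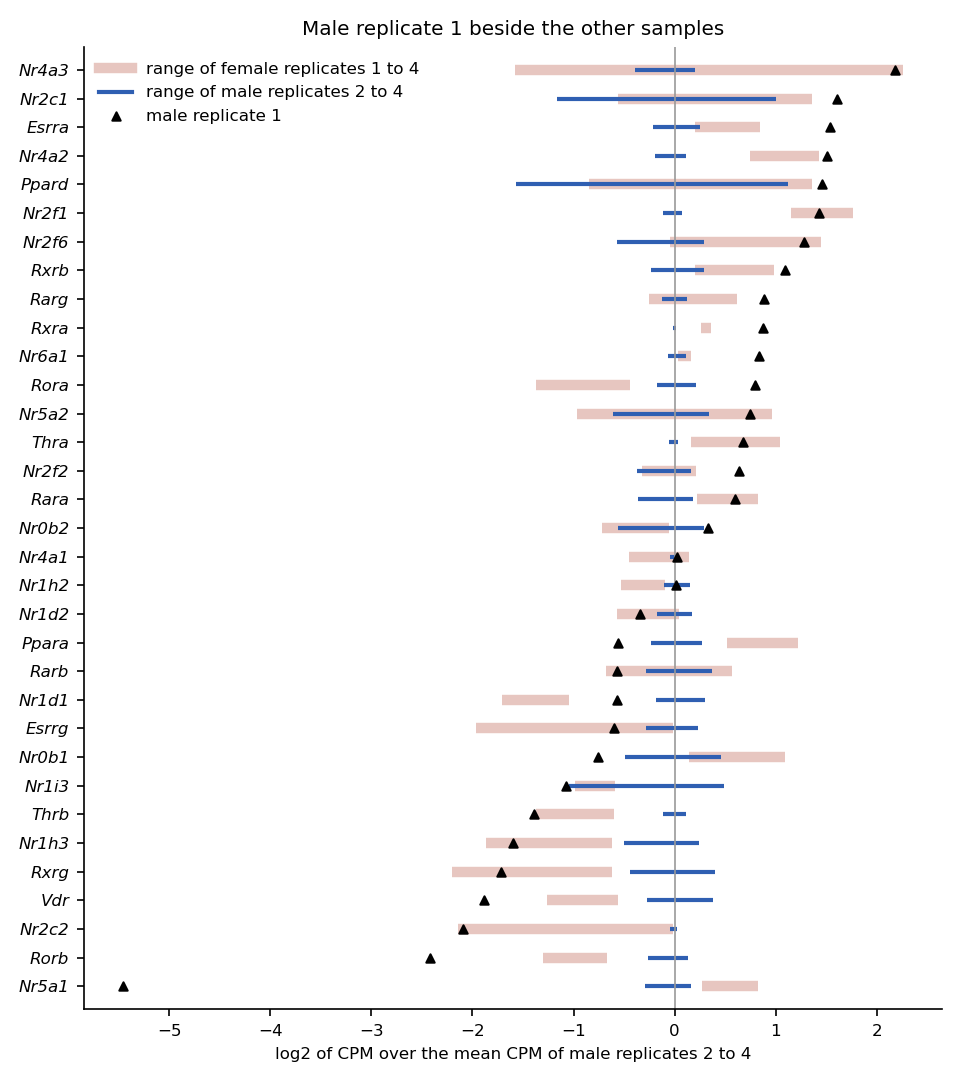
The log2 of CPM over the mean CPM of male replicates 2 to 4, for the 33 nuclear receptor genes with at least 1 CPM in each of 7 samples, with the range of these males as a dark line, the range of the females as a pale bar and male replicate 1 as a triangle. *Nr5a1* and *Rorb* lie farthest to the left, and *Nr4a3* farthest to the right.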

How the data were processed

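RNA from 8 samples of EGFP-positive pituitary cells was prepared by the authors with the RNeasy micro and NEBNext Single Cell/Low Input kits, which do not mark strand. The authors deposited raw counts of reads per gene, without normalization, in a single table. Per the labels, reads were trimmed with cutadapt, mapped to mm10 (GRCm38) with STAR and counted with featureCounts. The annotation is not given in the sources used here. Of the 55523 entries, 28933 carry MSTRG names, a form that StringTie assembly gives and the methods do not mention.

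The members, lists and tests were chosen with earlier results of these data known. CPM were computed with TMM factors over 8 samples in edgeR 4.0.16 (R 4.3.3). Male replicates 2 to 4 and female replicates 1 to 4 were fitted with edgeR's quasi-likelihood test after filterByExpr (minimum count 10), with Benjamini-Hochberg adjustment over all genes and a threshold of 0.05. Standard errors come from the F statistic. DESeq2 1.42.0, library size alone, no filter beyond 1 count, all 8 samples, a replicate block, counts summed per locus and leaving out each sample were alternatives. Other steps used Python 3.11.15 with pandas 2.3.3 and scipy 1.17.1. Exon lengths and overlaps come from GENCODE M21, and promoter windows from RefSeq.

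Values in every sample are given for members with a mean of at least 10 CPM over 7 samples, past the threshold or without overlap between the sexes, which made 26. Others are given by ranges, means or single values, and genes of the lists where they passed. *Dio2*, *Slc7a8*, *Egr1*, *Tshb* and *Lhb*, the single endothelial markers in male replicate 1, and the values of *Ppard* and *Nr2c1* in every sample, were added after the values had been seen. Ratios within a library and gaps between samples were added after the values had been seen. Coordinates count from 1.

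The test was checked on simulated counts for the male against female comparison, with 185 genes changed by a log2 change of 2 among 19155 tested. It recovered 17.8% of them, and 2.94% of its calls were false. The share of changed genes and the size of change were set by choice. In the data 19.9% of all genes had an unadjusted p under 0.05 in edgeR, so the recovery does not carry over to the real comparison.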

Additional observations from a re-analysis of the deposited data

Results flagged for a closer look

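Each group of 4 samples was searched for a highest or lowest sample far from the others, by Dixon's 95% critical value for the gap to its nearest neighbour over the range. Of 100 groups examined, 14 held such a sample, where chance gives about 5 if the groups were independent, which they are not because they share the same libraries. 2 of the 14 (*Nr1h5* and *Nr1i2*) had 0 in the other samples, so that any count would stand out. 10 of the 14 samples were male replicate 1. It was above the other males for *Nr4a2* (255 CPM beside 78.0 to 96.6), *Nr4a3* (148 beside 25.0 to 37.7), *Nr6a1* (228 beside 123 to 138), *Rxra* (52.2 beside 28.3 to 28.9), *Thra* (106 beside 63.8 to 67.6), *Esrra* (15.5 beside 4.63 to 6.38), *Nr2f1* (8.91 beside 3.04 to 3.47) and *Nr1h5* (0.480 CPM beside 0). It was below them for *Nr2c2* (9.69 CPM beside 39.9 to 42) and for the sum of the gonadotrope markers (28400 CPM beside 67900 to 75700), although *Lhb* alone, at 9340 CPM, lay within the 6290 to 9610 CPM of the other males. *Nr5a1*, although 44.0-fold lower there, did not reach the critical value.

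4 samples other than male replicate 1 stood out. *Ppard* was at 2.73 CPM in female replicate 3 beside 11.8 to 12.6 CPM in the other females. *Nr1i2* was at 0.863 CPM in male replicate 4 beside 0 in the other males. The lactotrope marker *Prl* was at 18100 CPM in female replicate 2 beside 4670 to 6940 CPM. The sum of stromal markers was 174 CPM in female replicate 1 beside 124 to 127 CPM.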

How the results depend on the processing

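The number of calls depended on the processing more than the direction of the fold changes did. All genes called were 471 in edgeR, 2235 with DESeq2, 808 with library size alone, 177 with no filter beyond 1 count, 67 with all 8 samples, 0 with the replicate block and between 88 and 171 with 1 sample left out. Receptor genes called were 3, and 8 with DESeq2, 2 with library size alone (without *Nr1d1*), 1 with no filter (*Nr2f1*), 0 with all 8 samples, 0 with the replicate block and between 0 and 1 with 1 sample left out. Genes of the 8 lists called were 2, and 16 with DESeq2, 5 with library size alone, 1 with no filter, 0 with all 8 samples, 0 with the replicate block (adjusted p of 0.196 for *Rdh10*) and between 1 and 2 with 1 sample left out. At an unadjusted p under 0.05 in edgeR there were 2954 genes, 13 receptor genes and 20 genes of the lists with the block, and 1997, 6 and 15 with all 8 samples. The cause was not tested. With library size alone the median over all genes moved to -0.24 (log2), and 16.5% of calls were then higher in males, against 42%. The labels do not say whether replicate numbers pair the samples. Same-numbered males and females had correlations of -0.02, -0.01 and 0.00 over 19518 genes, and differently numbered ones between -0.04 and 0.05. A correlation over all genes cannot exclude a pairing that touches only some of them.

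Of 338 log2 fold changes of 26 receptor genes under 13 alternatives, 294 kept direction and side of the threshold, 28 no longer passed, 6 newly passed and 10 changed sign. The changes of sign were in *Nr2f2* (-0.186 with library size alone, -0.00557 with the replicate block, and between -0.0641 and 0.168 with 1 sample left out, below 0 without female replicate 2, male replicate 2 or male replicate 3), *Nr4a1* (-0.044 with library size alone), *Nr6a1* (0.13 with all 8 samples) and *Rarg* (0.14 with all 8 samples, 0.034 with the replicate block, and between -0.255 and 0.0502 with 1 sample left out, above 0 without female replicate 1). Over these alternatives the adjusted p was between 0.000111 and 0.233 for *Nr1d1*, 2.89e-07 and 0.437 for *Nr2f1*, and 0.000167 and 0.748 for *Nr4a2*. At 5 CPM in place of 1 CPM, 22 receptor genes were detected. Genes under about 1 CPM rest on few counts, but the effect of depth was not tested.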

Other observations

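*Ppard*, *Nr2c1* and *Nr2c2* lay at separate levels within a sex, a pattern chosen after the values had been seen. *Ppard* was at 12.6, 11.95, 2.73 and 11.8 CPM in female replicates 1 to 4 and at 1.66, 2.38 and 10.7 CPM in male replicates 2 to 4. *Nr2c1* was at 10.4, 11.95, 9.42 and 3.16 CPM in females and at 9.34, 2.08 and 2.54 CPM in males. A gap of at least 2-fold between neighbouring samples was found in 7 of the 33 receptor genes detected in all 7 samples (21.2%), among them *Nr2f1*, whose gap lay between the sexes, and the widest were 3.92-fold in *Ppard*, 3.54-fold in *Nr2c2* and 2.96-fold in *Nr2c1*. Such a gap was found in 2405 of 14173 genes (17.0%) at the same detection limit, so that the share of the receptor genes was near that of all genes. These genes are counted under MSTRG names, as are all 33 receptor genes detected in all 7 samples, so that the name does not set them apart. The origin of these names is not stated in the methods, and the part of read assignment in these levels was not tested.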
